A study of Sus scrofa with 4 samples.

Results

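Acinar cells are the enzyme-making cells of the exocrine pancreas. They fold digestive enzymes in a dense endoplasmic reticulum (ER), pack them into zymogen granules and release them into the ducts when cholecystokinin or acetylcholine raises their calcium. Their identity is held by a set of transcription factors around PTF1A and its partner RBPJL.

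The acinar cells described here came from single-cell RNA sequencing of porcine pancreas. Of its 4 libraries, 2 held ductal organoids grown from pig pancreas (PPDO), and the other 2 held primary pancreas. The primary libraries came from 2 late postnatal pigs, a wild type and an INS-eGFP animal, processed on different days. For the first pancreas ductal fragments were picked by hand and live cells sorted, and for the second, cells binding the duct lectin DBA, INS-eGFP cells and whole suspension were sorted and pooled. Neither preparation was therefore aimed at acinar cells, and GEO's labels leave out which animal gave which library. The numbers 1 and 2 below are those of the labels.

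A barcode was kept when it had at least 2000 UMIs (unique molecular identifiers, each marking a captured molecule) and at most 9000 genes. It was taken as acinar when CPA1, CPB1, PNLIP, CTRC, CEL and CLPS together made up at least 3% of its UMIs, INS under 10% and SLC4A4, a ductal bicarbonate transporter, under 0.5%. This gave 279 acinar cells among the 32580 barcodes of all 4 libraries. Primary pancreas 1 held 132 of 5677 kept barcodes (2.33%, 95% exact Clopper-Pearson interval 1.95 to 2.75) and primary pancreas 2 held 147 of 5643 (2.60%, 2.21 to 3.05). The intervals cover counting error only, and both shares were set in part by the sorting. Under the study's own limits on genes and UMIs they were 114 of 5848 (1.95%) and 60 of 4463 (1.34%). Duct cells, chosen by PKHD1, CFTR, SCTR and SLC4A4 at 0.3% of UMIs or more, numbered 2308 and 1262, and beta cells, chosen by INS at 10% or more, numbered 47 and 3110. The primary libraries held 87043513 and 138928395 UMIs and shared 10 barcodes with each other. No PPDO barcode reached an enzyme share of 3%, the highest being 0.191% and 0.129%.

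The enzyme share, which chose the cells, is given as a description. Its median was 16.3% of UMIs in primary pancreas 1 (range 3.07 to 24.6) and 18.8% in primary pancreas 2 (3.21 to 25.9). The cells nearest the limit had 3.07, 3.25 and 3.47% inside it and 2.57, 2.15 and 1.92% outside it in primary pancreas 1. In primary pancreas 2 they had 3.21, 3.59 and 3.69% inside and 2.92, 2.81 and 2.63% outside. Only 27 and 10 acinar cells were under 10%, while the kept barcodes of the bins from 1 to 2% and from 2 to 3% numbered 31 and 3 in primary pancreas 1 and 59 and 14 in primary pancreas 2. Of these, 30 and 25 also met the limits on INS and SLC4A4. The other 105 and 137 acinar cells had at least 10%, as the plot of enzyme shares shows.

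**Figure D1:**
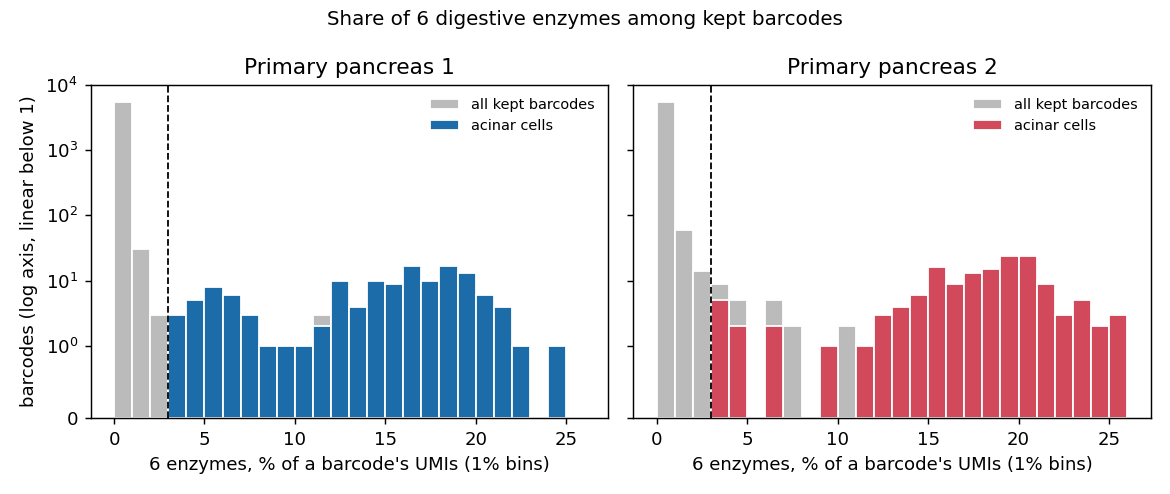
Kept barcodes of each primary pancreas library by the share of their UMIs from the 6 enzymes of the rule, in bins of 1% on the x axis, with the number of barcodes on a log axis and the 3% limit dashed. The acinar cells have medians of 16.3 and 18.8%, and 27 and 10 of them lie between the limit and 10%.

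RBPJL, the one marker of the set that the rule did not use, was detected in 82 of 132 and 80 of 147 acinar cells (62.1 and 54.4%). That alone did not set the acinar cells apart, since 65.6 and 73.6% of the duct cells had an RBPJL UMI, at a greater depth (median 18591 and 20394.5 UMIs against 9025 and 8503). PTF1A was found in 26.5 and 17.7% of acinar cells and in 0.693 and 0.555% of duct cells. BHLHA15 (MIST1), which drives the enlargement of the secretory apparatus, was found in 28.0 and 34.0% of acinar and 1.13 and 1.51% of duct cells. The detection of PTF1A and BHLHA15 thus went with the label in both libraries, in spite of the lower depth of the acinar cells.

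CLPS (colipase) had the largest share of any named gene, 5.08% of acinar UMIs in primary pancreas 1 and 5.55% in primary pancreas 2. PRSS2, a trypsinogen, followed with 4.76 and 4.59%, PLA2G1B (pancreatic phospholipase A2) with 3.86 and 2.77%, CPA1 (carboxypeptidase A1) with 3.29 and 3.48% and CTRC (chymotrypsin C) with 3.14 and 3.46%. PNLIP (pancreatic lipase) had 1.33 and 1.68%, CEL (bile salt-activated lipase) 1.05 and 0.823%, SYCN (syncollin, a granule protein) 0.942 and 1.10%, GP2 (the main granule membrane glycoprotein) 0.870 and 1.16% and SPINK1 (the trypsin inhibitor) 0.733 and 0.676%. RNASE1 and DNASE1 gave 0.299 and 0.462%, and 0.282 and 0.330%. The 23 digestive and granule genes that could be matched made up 28.6 and 29.7% of acinar UMIs, and 20 of them had more than 3 UMIs in each library.

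Not every gene placed on the digestive, granule and regenerating lists was high. CTRL, a chymotrypsin-like protease, had 16 and 8 UMIs, and SPINK4 and REG4 had none, where a count of 0 allows up to 3 UMIs, or 1.82 and 1.61 UMIs per 1000000 (CPM). CELA1 reached only 259 and 317 CPM against 7367 and 2934 CPM for CELA2A, its fellow elastase. Amylase, the cationic trypsinogen, chymotrypsinogen B and the REG1 and REG3 genes were not matched to a symbol and are not analysed here. Genes without a symbol took 48.4 and 47.0% of acinar UMIs (19.6 and 14.6% of duct and 7.84 and 7.56% of beta UMIs), and the gene ENSSSCG00000036013 alone took 25.2 and 28.1%.

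From cell to cell the enzymes varied unequally. The 10th to 90th percentile of CLPS ran from 1.34 to 7.20% of a cell's UMIs in primary pancreas 1 and from 3.27 to 7.12% in primary pancreas 2. For CELA2A it ran from 0.15 to 1.23% and from 0.0454 to 0.541%, while GP2 was narrower, 0.516 to 1.30% and 0.793 to 1.78%. After thinning every cell to 2000 UMIs, the variance over the mean was 26.4 and 16.0 for PRSS2, 22.6 and 12.2 for CLPS, 8.15 and 13.8 for PNLIP and 1.57 and 1.52 for DNASE1, where pure counting would give about 1. In both libraries 35 of 186 genes with a mean of at least 0.2 UMIs had a ratio of at least 2, among them the mitochondrial gene ND5 with 18.5 and 23.4.

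**Figure D2:**
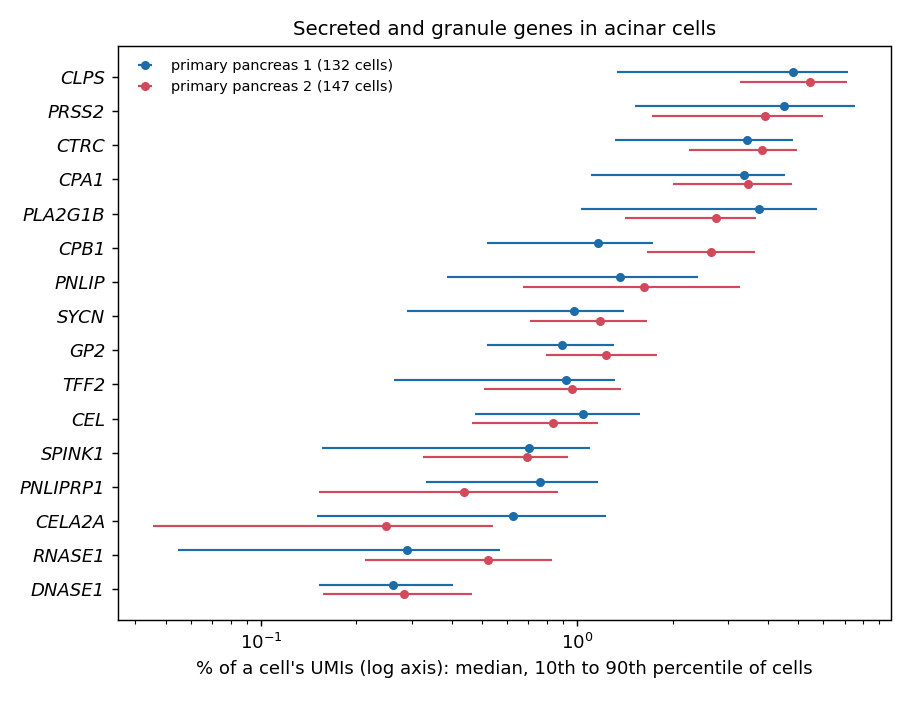
Share of a cell's UMIs from secreted and granule genes in the acinar cells, on a log axis, with points at the median and bars from the 10th to the 90th percentile of cells in each primary pancreas library. CLPS, PRSS2, PLA2G1B, CPA1 and CTRC lead in both libraries, and CPB1 and CELA2A differ most between them.

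Enzyme RNA was also found outside the acinar cells, at a low level. The 6 enzymes of the rule gave 0.0520 and 0.0386% of duct UMIs, 0.0158 and 0.0246% of beta UMIs and 0.0721 and 0.193% of the UMIs of other kept barcodes. Over 18 digestive genes the level in duct cells was a median of 0.375 and 0.255% of the acinar level, with DNASE1 the highest at 1.11 and 1.51%. RBPJL stood outside that range, since duct cells held 24.6 and 23.2% of its acinar share of UMIs. In the other direction, INS made up 0.0165% of acinar UMIs in primary pancreas 1 and 1.44% in primary pancreas 2, where duct cells held 0.00968 and 0.807%. The counts are without a correction for free RNA, whose part in these values was not tested.

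The acinar cells were few in genes for their depth, and are described here in 2 bands of the plot of genes against UMIs. Their median was 749.5 and 686 genes per cell, against 4926 and 5523.5 in duct and 4327 and 4800 in beta cells. At an equal draw of 2000 UMIs the expected number of genes had a median of 226 and 259 in acinar, 1213 and 1308 in duct and 731 and 632 in beta cells. The bands were split at 300 genes in 2000 UMIs, a limit set after the distribution was seen, in place of 500 tried first. Under it lay 89 of 132 (67.4%) and 112 of 147 (76.2%) acinar cells, and under 500 lay 101 and 131. Some cells thus lay between both limits, and a gap between the bands was not tested. The gene-rich cells at 300 had medians of 654 and 497 genes in 2000 UMIs.

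**Figure D3:**
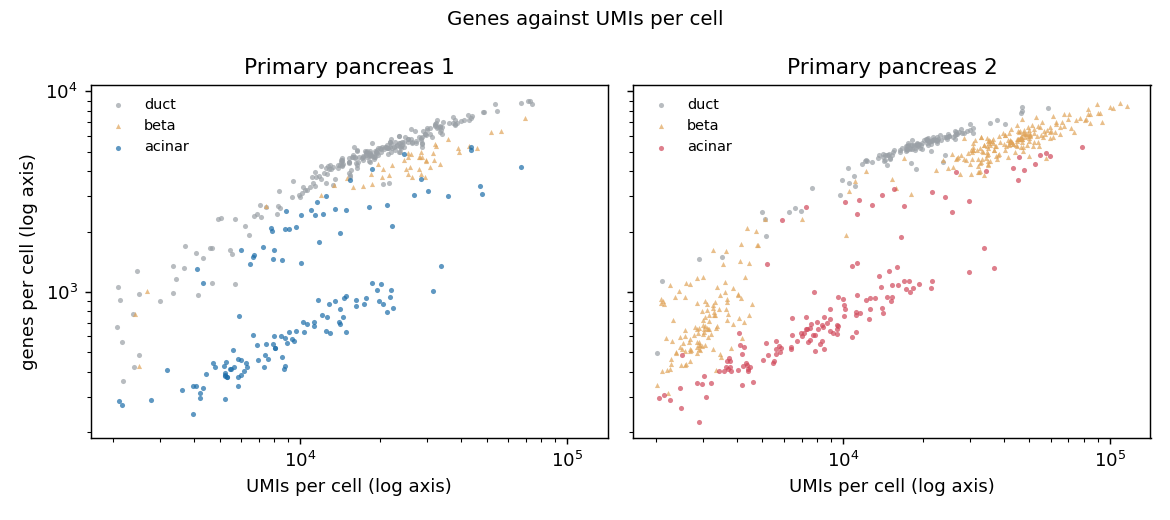
Genes against UMIs per cell in the acinar, duct and beta cells of each primary pancreas library, both axes log. At the same number of UMIs most acinar cells lie below the duct cells, with medians of 749.5 and 686 genes, and a smaller upper band approaches them.

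The bands also differed in other values, here and in the next paragraph. The split itself fixes these in part, since UMIs filled by a few enzymes leave fewer for scarce genes. The gene-poor band had a median enzyme share of 17.3 and 19.7% and the gene-rich band 6.79 and 15.1%. Split at 500 these medians were 17.2 and 19.3% against 6.05 and 8.18%. The 13 mitochondrial genes made up 0.0355 and 0.0851% of the UMIs of the gene-poor and 0.621 and 0.340% of those of the gene-rich band, and 43 and 37 gene-poor cells had no mitochondrial UMI at all. The acinar transcription factors together had 241 and 262 CPM in the gene-poor and 1829 and 1578 CPM in the gene-rich band (517 and 555 against 2241 and 2345 CPM when split at 500). RBPJL had 85.7 and 83.0 CPM in the gene-poor band, near its 83.0 and 80.1 CPM in duct cells, and 640 and 660 CPM in the gene-rich band. BHLHA15 differed less, with 28.9 and 35.6 against 34.7 and 46.1 CPM.

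The ER lists differed in this. The ER folding list had 4268 and 4494 CPM in the gene-poor and 4206 and 4467 CPM in the gene-rich band, and the translocation and N-glycosylation list 3520 and 3735 against 3459 and 4197 CPM. The folding sum came largely from the isomerases PDIA2 and P4HB. PDIA2 gave 0.146 and 0.133% and P4HB 0.113 and 0.129% of all acinar UMIs, beside 0.424 and 0.448% for the whole list. The unfolded protein response had 287 and 364 CPM in the gene-poor against 1013 and 1014 CPM in the gene-rich band, and transport from ER to Golgi 797 and 933 against 1253 and 1502 CPM. Calcium signalling genes were at 45.6 and 67.2 CPM in the gene-poor against 545 and 401 CPM in the gene-rich band. Endothelial markers had 11.1 and 4.9 against 518 and 33.1 CPM, and immune markers 5.56 and 2.96 against 138 and 15.4 CPM. Ductal markers had 45.6 and 84.9 in the gene-poor against 434 and 189 CPM in the gene-rich band, and immediate early and heat shock genes 145 and 68.2 against 2219 and 454 CPM. Whether the gene-poor barcodes held whole cells, or the gene-rich ones more than 1 cell, was not tested. Scrublet, a doublet caller, placed 3 and 1 acinar cells over the study's limits, and the study's own minimum of 400 and 800 genes would have removed 20 of 132 and 87 of 147.

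The acinar cells of each library were also ranked by enzyme share and divided in 3 equal groups. From the lowest to the highest group the proteases went from 78409 over 147504 to 161791 CPM in primary pancreas 1 and from 123120 over 151414 to 167793 CPM in primary pancreas 2, which the ranking itself fixes in part. The acinar transcription factors, in gene-rich cells largely RBPJL and MECOM, ran the other way, 2021, 626 and 404 CPM and 1460, 536 and 400 CPM. The ranking fixes this order in part too. Endothelial markers went from 758 over 24.8 to 18.6 CPM and from 36.8 over 5.15 to 5.53 CPM. The ER folding list, largely PDIA2 and P4HB, stayed between 4095 and 4382 CPM and between 4135 and 4718 CPM. The lowest group also held more gene-rich cells, with a median of 623.5 genes in 2000 UMIs against 212 and 218.5 in primary pancreas 1, and 369 against 267 and 238 in primary pancreas 2. The part of the bands, or of other cell types, in the order of the lists was not tested. These are values of cells within a library, with no test.

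**Figure D4:**
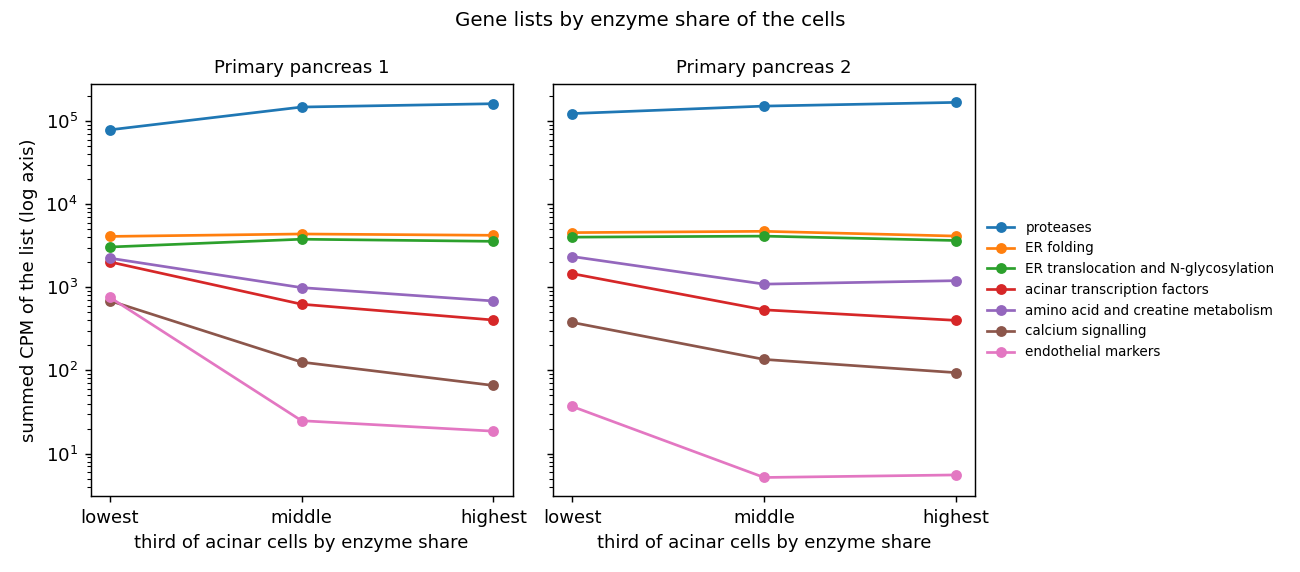
Summed CPM of 7 gene lists, on a log axis, in 3 equal groups of the acinar cells ranked by enzyme share, for each primary pancreas library. The ER folding list, largely PDIA2 and P4HB, stays between 4095 and 4718 CPM. The proteases rise with the ranking that uses some of them. The transcription factors, in gene-rich cells largely RBPJL and MECOM, go from 2021 to 404 CPM and from 1460 to 400 CPM.

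To compare acinar with duct and beta cells, UMIs were summed per library and cell class, and the 6 sums (n = 2 libraries per class) were fitted together with edgeR. The 11 genes that chose the cells were left out. The classes were cut from the same counts that were tested, so the calls describe cells so chosen, and the p-values measure only the spread between 2 animals that were also prepared differently. With TMM scaling, which sets most genes to no change, 2696 of 17971 genes passed an adjusted p of 0.05 between acinar and duct cells, 1373 higher in acinar (7.64% of genes tested) and 1323 lower (7.36%). Against beta cells 3124 passed, 1732 higher (9.64%) and 1392 lower (7.75%). With the library as a block the counts were 4187 (2043 higher, 11.4%, and 2144 lower, 11.9%) and 4356 (2300 higher, 12.8%, and 2056 lower, 11.4%). With DESeq2, which gave 14835 genes an adjusted p, 13.3% were higher and 9% lower than in duct, and 14.6% higher and 11.8% lower than in beta cells.

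These splits rested on the scaling. TMM gave the acinar sums factors of 0.408 and 0.402 and the other sums factors of 1.37 to 1.73, which raises every acinar level. Without scaling factors, as plain shares of the tested UMIs, the log2 fold changes were lower by a median of 1.88 against duct and 2.01 against beta cells. The calls then became 10802 against duct (569 higher, 3.17%, and 10233 lower, 56.9%) and 11214 against beta cells (618 higher, 3.44%, and 10596 lower, 59%). Calls that held on both scales numbered 565 higher (3.14% of genes tested) and 1323 lower (7.36%) against duct, and 614 higher (3.42%) and 1392 lower (7.75%) against beta cells. All lower calls with TMM were thus kept, which the downward shift goes far to fix. A lower call on both scales below therefore adds nothing to the call with TMM. Below, levels are TMM-scaled CPM unless called unscaled, and folds are log2 with their standard error. Adjusted p-values are from edgeR's quasi-likelihood test, and each list is given on both scales. A list's counts without scaling stand beside 56.9 and 59% of all genes lower and 3.17 and 3.44% higher.

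The fit was also made with the acinar cells of 1 band only, which rests on fewer UMIs. In gene-rich cells 5.84% of all genes tested were higher and 6.02% lower than in duct cells at the limit of 300, and 4.82 and 4.7% at the limit of 500. Against beta cells these were 7.45 and 6.34%, and 5.99 and 4.51%. In gene-poor cells 6.71% were higher and 12.7% lower than in duct cells at 300, and 8.21 and 10.7% at 500, and against beta cells 7.63 and 11.5%, and 9.41 and 9.86%. The shares of higher and of lower calls were thus both smaller in gene-rich cells than in all acinar cells. In gene-poor cells at 300 the shares of higher calls were also smaller, and those of lower calls larger.

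Of the 9 transcription factors placed on the acinar list, 6 were higher than in duct cells, 5 of them on both scales. The 1 lower was PROX1. Against beta cells 8 were higher, 7 on both scales. Without scaling 5 were higher and 3 lower than in duct, and 7 higher and 1 lower than in beta cells. PTF1A had 114 and 69.5 CPM in the acinar sums, 0.239 and 0.170 in duct and 0.917 and 0.596 in beta sums. Its log2 fold change was 8.75 ± 0.49 over duct (adjusted p = 7.29e-05) and 7.20 ± 0.52 over beta cells (adjusted p = 0.000225), with no overlap between classes. BHLHA15 had 91.2 and 124 CPM against 0.434 and 0.461 in duct cells, a fold of 7.90 ± 0.40 (adjusted p = 5.44e-05). GATA4, which acts in early pancreas and acinar differentiation, had 181 and 141 CPM against 5.48 and 2.52, a fold of 5.32 ± 0.45 (adjusted p = 0.000276). RBPJL had 975 and 1062 CPM against 62.4 and 51.3 in duct and 0 and 28.8 in beta cells. Its fold over duct was 4.16 ± 0.98 (adjusted p = 0.025), a call that was lost with DESeq2 and without either duct sum.

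NR5A2, a regulator of enzyme genes, had 189 and 152 CPM in acinar against 489 and 428 in duct cells, with a fold of -1.42 ± 0.43 (adjusted p = 0.0613) that passed as lower in 11 of 20 alternatives, among them the library block and the fit without scaling factors (-3.30). GATA6 had 161 and 161 against 167 and 151 CPM, a fold of 0.02 ± 0.46 with TMM (adjusted p = 0.987) and -1.86 without scaling. Both were higher than in beta cells, where NR5A2 had 0.917 and 5.12 CPM and GATA6 had 0 and 3.32. MECOM had 819 and 561 CPM against 17.9 and 6.57 in duct cells, but nearly all of it came from the gene-rich band (621 and 397 CPM against 2.23 and 2.96, unscaled, split at 300). The kept barcodes outside the acinar, duct and beta classes had 554 and 256 CPM of MECOM, also unscaled. XBP1, the factor that builds the secretory ER, had 249 and 352 CPM against 105 and 146 in duct cells (1.26 ± 0.36, adjusted p = 0.0492), a call lost in 8 of 20 alternatives and turned to -0.65 without scaling. PROX1 was lower than in duct cells, 1.75 and 23.2 against 219 and 210 CPM (-4.08 ± 0.71, adjusted p = 0.00672).

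SOX9, which keeps duct identity, had 19.3 and 4.96 CPM against 240 and 225 in duct cells (-4.27 ± 0.52, adjusted p = 0.00126). ONECUT1 had 17.5 and 53.0 against 386 and 490 CPM. Of 12 such factors 4 were lower than in duct cells on both scales, among them NKX6-1, which lost its call in 11 of 20 alternatives, and 1 was higher with TMM only. Against beta cells 4 were lower on both scales, PDX1, NKX6-1, ISL1 and MAFA, all of which make or keep beta cells, and 2, ONECUT1 and HES1, were higher with TMM only. Without scaling 6 were lower than in duct and 9 than in beta cells, and none was higher. The call of MAFA was lost in 9 of 20 alternatives. PDX1 had 5.26 and 24.8 CPM in acinar against 90.8 and 114 in beta cells. The gates on duct genes and on INS help to fix the lower calls of this list.

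Of 31 genes of translocation and N-glycosylation, 22 were higher than in duct cells and none lower with TMM, 7 were higher on both scales, and without scaling 7 were higher and 10 lower. The median log2 fold was 2.03 with TMM and 0.14 without, beside -0.37 and -2.25 over all genes tested. Against beta cells the counts were 19 and 0 with TMM, 5 higher on both scales, and 5 higher and 12 lower without scaling. In gene-rich cells alone the genes higher than in duct cells were 16 of 31 (limit of 300) and 8 (limit of 500), beside 5.84 and 4.82% of all genes, with medians of 1.34 and 0.65. Those higher than in beta cells were 8 and 3, beside 7.45 and 5.99%. In gene-poor cells they were 22 against duct and 21 against beta cells at either limit, with medians over duct cells of 2.95 and 2.60. Beside these, 6.71 and 8.21% of all genes were higher than in duct, and 7.63 and 9.41% than in beta cells. SSR4, a subunit of the translocon-associated complex, had 1694 and 2244 CPM against 134 and 116 in duct and 261 and 288 in beta cells (3.98 ± 0.35 over duct, adjusted p = 0.00032). SEC11C, a signal peptidase subunit, had 902 and 1135 CPM against 61.3 and 75.2 in duct and 102 and 133 in beta cells. SEC61A1, the channel itself, had 286 and 354 against 30.1 and 24.7 in duct and 43.1 and 51.1 CPM in beta cells. SSR3 and TRAM1, both beside the channel, were also higher on both scales against both classes.

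Among 22 folding genes, 17 were higher than in duct cells with TMM and 7 on both scales, and 10 and 3 against beta cells. Without scaling 7 were higher and 3 lower than in duct, and 3 higher and 11 lower than in beta cells. In gene-rich cells 11 (limit of 300) and 9 (limit of 500) were higher than in duct (5.84 and 4.82% of all genes) and 6 and 3 than in beta cells (7.45 and 5.99%). In gene-poor cells the counts were 21 and 21 (6.71 and 8.21%), and 14 and 13 (7.63 and 9.41%). The 3 that held on both scales against both classes were protein disulfide isomerases or their kin. PDIA2, the pancreatic isomerase, had 4204 and 4104 CPM against 3.11 and 3.13 in duct and 0 and 22.3 in beta cells, a fold of 10.38 ± 1.26 over duct (adjusted p = 0.0012). P4HB had 3269 and 3963 CPM against 43.0 and 41.9 in duct and 83.4 and 133 in beta cells, a fold of 6.41 ± 0.44 (adjusted p = 0.000128). ERP27, which binds a sister isomerase, had 756 and 1201 CPM against 1.12 and 0.801 in duct and 1.83 and 2.56 in beta cells, a fold of 9.98 ± 0.50 (adjusted p = 5.44e-05). CRELD2, ERO1B and PDIA4 were higher than in duct cells on both scales.

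The general chaperones of the ER did not pass in the fit without a block, but HSPA5, HSP90B1 and CALR were higher than in duct cells with the library as a block. HSPA5 (BiP) had 40.3 and 38.1 CPM in acinar against 15.7 and 8.98 in duct and 53.2 and 18 in beta cells, with folds of 1.67 ± 0.56 (adjusted p = 0.0847) and 0.23 ± 0.56 (adjusted p = 0.808). HSP90B1 had 389 and 458 CPM against 220 and 192 in duct and 281 and 457 in beta cells (1.04 ± 0.33, adjusted p = 0.074, over duct). CALR had 158 and 119 against 74.6 and 67.7 CPM and CANX 324 and 351 against 215 and 165 CPM in duct cells, neither past the threshold. The higher call over duct cells was gained in 10 of 20 alternatives by CALR, 8 by HSP90B1, 6 by HSPA5 and 4 by CANX. Without scaling CALR and CANX passed as lower against both classes, and HSPA5 and HSP90B1 as lower than in beta cells.

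In the unfolded protein response 6 of 10 genes were higher than in duct and 6 than in beta cells with TMM, 2 on both scales in each. Without scaling 2 were higher and 3 lower than in duct, and 2 higher and 1 lower than in beta cells. In gene-rich cells 6 and 6 were higher at the limit of 300 (5.84 and 7.45% of all genes), and 2 and 4 at the limit of 500 (4.82 and 5.99%). In gene-poor cells 4 and 4 were higher at 300 (6.71 and 7.63% of all genes), and 4 and 5 at 500 (8.21 and 9.41%). SEL1L, the adaptor that hands misfolded proteins to degradation, had 360 and 518 CPM against 25.5 and 24.2 in duct and 23.8 and 33.6 in beta cells, a fold of 4.14 ± 0.35 over duct (adjusted p = 0.000268). CREB3L1 had 160 and 212 CPM against 30.9 and 13.1 in duct and 0 and 2.07 in beta cells. ATF4 had 393 and 391 against 115 and 63.9 in duct cells, higher with TMM but not without scaling (2.13 and 0.28).

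In transport from ER to Golgi 8 of 19 genes were higher and 1 lower than in duct cells with TMM, 3 and 1 on both scales, and 6 and 1, and 2 and 1, against beta cells. Without scaling 3 were higher and 7 lower than in duct, and 2 higher and 12 lower than in beta cells, beside 56.9 and 59% of all genes lower. With the library as a block 13 were higher than in duct cells, beside 11.4% of all genes. In gene-rich cells 4 were higher than in duct cells at either limit, and 4 (limit of 300) and 3 (limit of 500) than in beta cells, and in gene-poor cells 8 and 9, and 7 and 6. Of all genes 5.84 and 4.82% were higher than in duct, and 7.45 and 5.99% than in beta cells, in the gene-rich fits. In the gene-poor fits these were 6.71 and 8.21%, and 7.63 and 9.41%. The cargo receptors TMED3 and TMED6 led. TMED3 had 691 and 1016 CPM against 9.31 and 8.90 in duct and 31.2 and 36.6 in beta cells (6.55 ± 0.39 over duct, adjusted p = 7.29e-05). TMED6 had 395 and 526 CPM against 10.7 and 11.8 in duct and 2.75 and 10.2 in beta cells. KDELR3, which returns ER proteins, went the other way with 75.4 and 57.9 CPM against 149 and 217 in duct and 326 and 316 in beta cells, its call against duct cells being lost in 5 of 20 alternatives.

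Beta cells also secrete from granules. Of 15 genes of granule release, 2 were higher and 1 lower than in duct cells with TMM (1 and 1 on both scales), and 3 were higher and 4 lower than in beta cells (1 and 4 on both scales). Without scaling 1 was higher and 10 lower than in duct, and 1 higher and 12 lower than in beta cells, beside 56.9 and 59% of all genes lower. In gene-rich cells 1 was higher and 1 lower than in beta cells at either limit. Of all genes 7.45% were higher and 6.34% lower there at 300, and 5.99 and 4.51% at 500. RAB3D, the small GTPase of the zymogen granule, had 35.1 and 53.0 CPM against 6.03 and 5.0 in duct cells (3.0 ± 0.37, adjusted p = 0.00123). RAB27A was lower than in duct cells with 54.4 and 43.0 against 178 and 102 CPM, a call lost in 6 of 20 alternatives. SYT7, a calcium sensor of release, had 1.75 and 19.9 CPM against 81.6 and 119 in beta cells (-3.21 ± 0.87, adjusted p = 0.0391), lost in 6 alternatives.

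CCKAR, the cholecystokinin receptor, had 43.8 and 39.7 CPM against 0.209 and 0.0728 in duct and 0 and 1.09 in beta cells, a fold of 8.09 ± 0.73 over duct (adjusted p = 0.00037). CHRM3, the muscarinic receptor, had 28.1 and 24.8 CPM against 0.688 and 0.582 in duct (5.36 ± 0.46, adjusted p = 0.00028) but 11.9 and 9.13 in beta cells (1.38 ± 0.42, adjusted p = 0.0579). Of the 6 receptors 4 were higher than in duct cells with TMM and 2 on both scales, and 3 and 1 against beta cells. Without scaling none was lower in either comparison. INSR, with 251 and 309 CPM against 62.9 and 72.3 in duct cells, was higher with TMM only. By band CCKAR had 1.11 and 8.89 CPM in gene-poor and 32.1 and 17.7 in gene-rich cells, unscaled.

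Of 12 calcium signalling genes, 2 were higher than in duct cells with TMM, ITPR2 and STIM2, and none on both scales. None was higher than in beta cells by edgeR with TMM over all acinar cells (1 at an unadjusted p under 0.05, 1 with DESeq2) and 2 were lower, among them ATP2C2, a calcium pump of the secretory pathway. Without scaling 7 were lower than in duct and 10 than in beta cells, beside 56.9 and 59% of all genes. With the library as a block 5 were lower than in beta cells, beside 11.4% of all genes. In gene-poor cells 8 (limit of 300) and 6 (limit of 500) were lower than in beta cells, beside 11.5 and 9.86% of all genes. In gene-rich cells 2 were lower at either limit (6.34 and 4.51% of all genes), and 1, ITPR2, was higher at 300 (7.45%). ITPR2, the release channel of acinar cells, had 291 and 253 CPM against 77.8 and 69.0 in duct cells (1.89 ± 0.27, adjusted p = 0.00283), and 0.01 without scaling. In the gene-poor cells alone its fold was -0.64.

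Of 15 amino acid transporters 10 were higher than in duct cells and none lower with TMM, 7 on both scales. Against beta cells 10 were higher and 2 lower, 7 and 2 on both scales. Without scaling 7 were higher and 2 lower than in duct, and 7 higher and 5 lower than in beta cells. By band the list had 368 and 402 CPM in gene-poor and 886 and 801 CPM in gene-rich cells, unscaled (limit of 300). SLC43A1, a carrier of large neutral amino acids, had 598 and 543 CPM against 1.54 and 0.825 in duct and 0 and 7.5 in beta cells, a fold of 8.89 ± 0.88 over duct (adjusted p = 0.000555). SLC1A5 had 158 and 149 CPM against 2.27 and 1.29, and SLC38A5, both glutamine carriers, 146 and 215 against 2.56 and 2.91 in duct cells. SLC39A5, a zinc transporter placed on the same list, had 228 and 266 CPM against 1.63 and 1.80. SLC7A2 and SLC7A8 were lower than in beta cells, SLC7A8 with 1.75 and 1.65 CPM against 86.2 and 62.0.

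In amino acid and creatine metabolism 10 of 18 genes were higher and 1 lower than in duct cells with TMM (6 and 1 on both scales), and 13 were higher than in beta cells (11 on both scales). Without scaling 6 were higher and 7 lower than in duct, and 11 higher and 5 lower than in beta cells. By band the list had 619 and 664 CPM in gene-poor and 2019 and 2762 CPM in gene-rich cells, unscaled (limit of 300). GATM, which makes the creatine precursor, had 830 and 1537 CPM against 4.01 and 4.05 in duct and 0 and 5.26 in beta cells, a fold of 8.20 ± 0.81 over duct (adjusted p = 0.000552). PSAT1, of serine synthesis, had 330 and 523 CPM against 12.3 and 17.4 in duct and 0.917 and 2.44 in beta cells. ASNS (asparagine synthetase) had 170 and 202 against 15.1 and 11.8 in duct and 19.3 and 22.2 CPM in beta cells. CBS and GPT2 were also higher on both scales against both classes. BCAT1 had 1098 and 1412 CPM against 652 and 595 in duct cells, not past the threshold (1.01 ± 0.55, adjusted p = 0.261), and 3.67 and 20.9 in beta cells. AASS, which breaks down lysine, had no UMI in either acinar sum and was at least 2.21-fold lower than its mean of 11.3 CPM in duct cells, taking 3 UMIs per library as the floor.

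**Figure D5:**
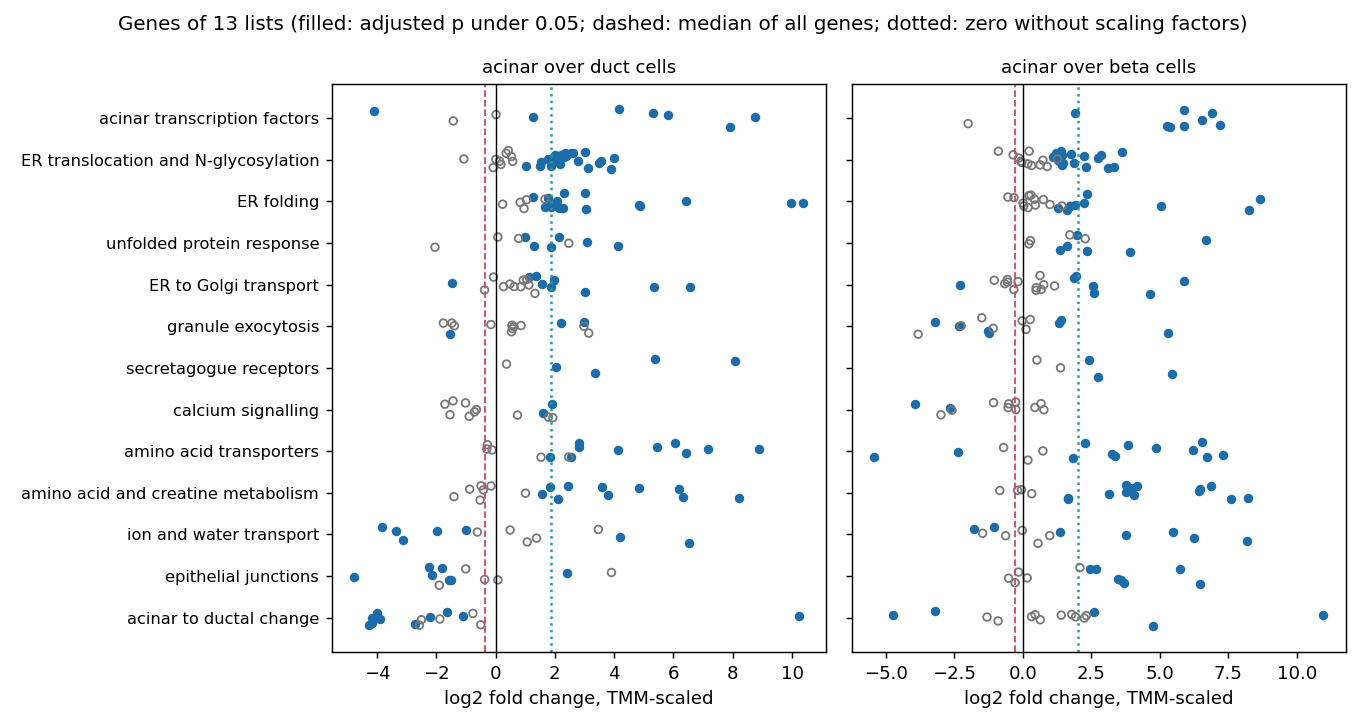
Log2 fold changes of the genes of 13 lists in acinar over duct and acinar over beta cells with TMM scaling, filled where the adjusted p was under 0.05, with the median of all genes dashed and the place of zero without scaling factors dotted (1.88 and 2.01). The medians over duct cells are 2.03 for translocation and N-glycosylation and 2.00 for folding, and those over beta cells 1.29 and 1.14.

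Of 12 genes of ion and water transport 2 were higher and 5 lower than in duct cells, on both scales, and 5 were higher and 2 lower than in beta cells with TMM (3 and 2 on both scales). Without scaling 2 were higher and 7 lower than in duct, and 3 higher and 5 lower than in beta cells. By band the list had 297 and 399 CPM in gene-poor and 1523 and 1441 CPM in gene-rich cells, unscaled (limit of 300). AQP8, a water channel of the acinar apical membrane, had 805 and 985 CPM against 10.8 and 8.47 in duct and 0 and 3.90 in beta cells (6.53 ± 0.65 over duct, adjusted p = 0.00057). KCNMA1, a calcium-activated potassium channel, had 1131 and 1329 CPM against 61.8 and 71.1 in duct cells, nearly all from the gene-rich band (843 and 897 against 15.6 and 44.5 CPM, unscaled). ATP1B1, a subunit of the sodium pump, was lower with 40.3 and 69.5 CPM against 865 and 696 in duct cells. KCNQ1 and CLCN3 were also among the genes lower than in duct cells, CLCN3 losing its call in 11 of 20 alternatives.

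With TMM 1 of 13 junction genes was higher and 6 lower than in duct cells (0 and 6 on both scales), and 7 were higher than in beta cells (5 on both scales). Without scaling 11 were lower and none higher than in duct cells, and 5 were higher and 3 lower than in beta cells. CDH1 (E-cadherin) had 132 and 147 CPM against 695 and 285 in duct and 11.9 and 12.7 in beta cells. CLDN10 had 267 and 281 against 734 and 812 CPM in duct and 12.8 and 27.3 in beta cells. Their calls against duct cells, and that of EPCAM, were lost in 3 to 7 of 20 alternatives. GJB1, a connexin that couples acinar cells, had 77.2 and 91.0 CPM against 16.3 and 15.1 in duct cells, higher with TMM only.

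Of 15 genes that mark the change of acinar towards duct-like cells, 9 were lower than in duct cells and 1, TFF2, was higher, all on both scales. The duct gate on related genes helps to fix the 9 lower calls. TFF2 went with the rule enzymes from cell to cell (Spearman 0.605 and 0.345), so the acinar gate helps to fix its higher call. KRT7 had 33.3 and 11.6 CPM against 415 and 382 (-4.16 ± 0.66, adjusted p = 0.0045), MMP7 61.4 and 9.93 against 620 and 522, SPP1 91.2 and 14.9 against 1315 and 578, and CLU 31.6 and 77.8 against 905 and 742 CPM. KRT8, a keratin of simple epithelia, had 232 and 182 against 709 and 591 CPM. Its partner KRT18 had 158 and 136 against 355 and 273 CPM, a call lost in 11 of 20 alternatives, each sum left out among them. TFF2 (a trefoil peptide) was among the most abundant acinar transcripts, 26363 and 27398 CPM against 28.4 and 16.3 in duct cells. Against beta cells 3 of the 15 were higher and 2 lower with TMM (1 and 2 on both scales), and 7 were higher with the library as a block and 7 with DESeq2. Without scaling 1 was higher and 12 lower than in duct, and 1 higher and 4 lower than in beta cells. None of 6 proliferation genes passed against either class by edgeR with TMM, with 0 at an unadjusted p under 0.05 and 0 with DESeq2, at 1397761 and 1504304 acinar UMIs in tested genes. Without scaling 3 of them were lower than in duct and 2 than in beta cells, beside 56.9 and 59% of all genes.

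Beyond the lists, genes with a symbol were named by size when they passed with TMM in the same direction against both classes. Both acinar sums had to lie beyond all duct and beta sums. Higher genes needed an acinar mean of 50 CPM, and lower genes that mean in duct and in beta cells. This gave 496 genes higher and 146 lower, under limits unlike for each direction. Before them, and with or without a symbol, 857 of 17971 genes tested were higher and 371 lower in both comparisons. The leading 15 higher were mostly secreted: SERPINI2 (pancpin), SYCN, PRSS2, KLK1 (tissue kallikrein), TFF2, CELA2A, CELA1, SPINK1, PLA2G1B, PNLIPRP1, GP2, RNASE1, PNLIPRP2, DPEP1 and ERP27. The digestive genes among them went with the rule and are given without a test. SERPINI2 had 2503 and 2959 CPM against 1.42 and 0.631 in duct cells and KLK1 2440 and 3190 against 2.78 and 1.31. DPEP1, a membrane dipeptidase and no secreted enzyme, had 368 and 434 CPM against 0.883 and 0.607 in duct and 0.917 and 0.983 in beta cells, a fold of 9.05 ± 0.40 over duct (adjusted p = 4.67e-05).

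The 10 genes furthest below both classes were LRRC4C, SCRN1, CLU, KCNH8, CC2D2A, DNAJC6, KIF3A, TMEM178B, KSR2 and DTNA. KCNH8, a potassium channel, had 5.26 and 3.31 CPM against 352 and 340 in duct and 58.7 and 62.2 in beta cells (-6.34 ± 0.40 against duct, adjusted p = 8.75e-05). LRRC4C had 3.51 and 8.27 CPM against 143 and 108 in duct and 193 and 133 in beta cells. CC2D2A and KIF3A, both of the primary cilium, had 1.75 and 6.62 CPM against 46.5 and 59.7, and 1.75 and 8.27 against 54.1 and 67.6 in duct cells. In acinar UMIs these lower genes rest on few molecules, 1 to 47 per library but for DNAJC6 with none in primary pancreas 1.

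The acinar sums of the libraries were also compared with each other. Levels in CPM here and in the next paragraph are unscaled shares of all UMIs of a class, so they are not those of the TMM scale. Of 287 genes with at least 100 CPM in either, 27 were at least 2-fold apart, 18 with the larger value in primary pancreas 1 and 9 in primary pancreas 2, with 1 sum per library and so no test. INS (165 and 14381 CPM), CHGA (3.64 and 126) and TTR (17.6 and 179) all had the smaller value in primary pancreas 1. INS had almost the same ratio in duct cells (0.0115 in acinar and 0.0120 in duct). Among acinar products CPB1 had 11582 and 25382 CPM, a ratio of 0.456 (95% counting interval 0.449 to 0.464), and CELA2A 7367 and 2934 CPM, a ratio of 2.51 (2.43 to 2.59). MAT2A, which makes the methyl donor of the cell, had 70.4 and 292 CPM in acinar but 82.9 and 88.4 CPM in duct cells.

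The 3 largest ratios towards primary pancreas 1 were those of CXCL2, ATF3 and FOS. FOS had 269 and 28.0 CPM in acinar and 2070 and 178 in duct cells, ATF3 166 and 11.8, and 1346 and 132, and CXCL2 109 and 3.77, and 856 and 38.0. In acinar cells of at least 10% enzymes 10 of the 18 genes larger in primary pancreas 1 fell under 100 CPM and 6 stayed 2-fold apart, while all 9 of the others stayed. Counted anew in those cells, 21 of 232 genes were 2-fold apart, 7 larger in primary pancreas 1 and 14 in primary pancreas 2. Endothelial markers (6 genes) made up 0.0242% of acinar UMIs in primary pancreas 1, led by PLVAP with 98.9 CPM, and 0.00178% in primary pancreas 2, with CDH5 and VWF at 0. Immune markers (7 genes) made up 0.00656 and 0.000861%, with CD3E at 0 in both. Against duct cells no endothelial or immune marker passed by edgeR with TMM and no block over all acinar cells (3 endothelial and 3 immune at an unadjusted p under 0.05, 1 and 1 with DESeq2). With the library as a block 5 endothelial markers were higher, and 3 immune markers were higher and 1 lower, beside 11.4% of all genes higher and 11.9% lower. In gene-rich cells at 500, 1 immune marker was higher than in duct cells (4.82% of all genes). In gene-poor cells 1 was lower at either limit (12.7 and 10.7%), as was 1 without scaling (56.9%). Against beta cells no endothelial marker passed in gene-poor cells at either limit, and 0 of 4 and 1 of 5 immune markers were higher. PTPRC passed as higher than in duct cells in 5 of 19 alternatives, among them the fit without acinar 2 (3.98), and was at -1.50 without acinar 1. Against beta cells 2 of 6 endothelial and 2 of 6 immune markers were higher with TMM, 1 of each on both scales, while PTPRC and PECAM1 passed with TMM only. The call of PTPRC over beta cells was lost in 5 and its sign changed in 4 of 19 alternatives, and for PECAM1 these were 8 and 1 of 20. The gene-poor cells held no UMI of PTPRC in either library, so that 2 of its 4 changes of sign rest on counts of 0. The part of other cell types in these values was not tested. Stromal and Schwann markers made up at most 0.000971 and 0.000486%, and none passed against either class by edgeR with TMM and no block (1 Schwann marker at an unadjusted p under 0.05) or by DESeq2. With the block, without scaling and in gene-poor cells, 1 Schwann marker was lower than in duct cells. Of 16 immediate early and heat shock genes, MYC was higher than in duct cells and MYC and IER3 than in beta cells, on both scales. Without scaling 3 of the 16 were lower than in duct and 3 than in beta cells. With the library as a block 2 were higher and 4 lower than in duct, and 6 higher and 1 lower than in beta cells. Of all genes 11.4% were higher and 11.9% lower than in duct with the block, and 12.8 and 11.4% than in beta cells. The call of MYC over duct cells was lost in 5 of 20 alternatives, among them gene-poor cells at 300, gene-rich cells at 500 and the fit without acinar 2. Of 9 endocrine markers none passed against duct cells by edgeR with TMM and no block over all acinar cells (1 at an unadjusted p under 0.05, 1 with DESeq2). But 8 were higher with the library as a block, beside 11.4% of all genes, and 1 in gene-poor cells at 500, beside 8.21%. Against beta cells 4 were lower on both scales. All 4 ductal markers tested were lower than in duct cells, which a gate on related genes helps to fix.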

How the data were processed

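Porcine single-cell libraries (10x Chromium 3' v3.1) were aligned by the authors with Cell Ranger to an in-house pig annotation. Per the labels the submitters' notes name Cell Ranger, GRCh38 and Sscrofa11.1, with no role given, so no positions are printed. The authors deposited uncorrected UMI counts for each barcode, with the other deposited tables naming barcodes and features. The study corrected free RNA with SoupX afterwards, and the counts used here are without it. All features of a gene, 3' extensions included, were summed (56060 features to 30290 genes, 12861 of them without a symbol). It was assumed that the label numbers are the sample numbers of the methods.

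The members, lists and tests were chosen with earlier results of these data known. Sums per library and class were fitted with edgeR 4.0.16 (TMM, filterByExpr, quasi-likelihood, Benjamini-Hochberg at 0.05; common biological coefficient of variation 0.357) in R 4.3.3. Standard errors are the log2 fold change over the root of F. DESeq2 1.42.0, other scalings, cell choices and each sum left out were alternatives. Fits without scaling factors, and fits restricted to gene-poor or gene-rich cells at 300 and 500 genes, were added after the data were seen. The fits were also run on simulated sums with known changes. These were drawn from the same mean profile with as many changes up as down, so they could not test the scaling of sums this unlike. Same-numbered sums come from the same library and animal, so they pair by design. Their deviations correlated at 0.336 (acinar and duct), 0.0856 (acinar and beta) and 0.231 (duct and beta). Genes were named where both classes passed in 1 direction, by the smaller of both folds. The limit of 50 CPM was on the acinar mean for higher genes, and on both other means for lower genes. Scrublet scores came from Scanpy 1.11.5. Genes of the lists without a matched symbol, amylase and KRT19 among them, were not used. Some genes of the lists are counted but not reported here by name.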

Additional observations from a re-analysis of the deposited data

Results flagged for a closer look

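A transgene feature for eGFP, outside the gene tables compared above, had 115 UMIs in the 47 beta cells of primary pancreas 1, which is 90.9 CPM (UMIs per 1000000), against 106 CPM in the 3110 beta cells of primary pancreas 2. Acinar cells had none in primary pancreas 1 and 2 UMIs in primary pancreas 2, at or under the limit of 3 UMIs, and duct cells had 32 and 44 UMIs (0.637 and 1.67 CPM). The signal thus appeared in the beta cells of both libraries, while the methods name 1 animal with an INS-eGFP transgene, and the cause was not tested.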

How the results depend on the processing

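With the library as a replicate block, the calls against duct cells went from 2696 to 4187. Those against beta cells went from 3124 to 4356. Of all genes 11.4% were then higher and 11.9% lower than in duct, and 12.8 and 11.4% than in beta cells. Under the block, ER to Golgi genes higher than in duct cells went from 8 to 13 of 19, granule release genes from 2 to 4 of 15 and duct and islet factors from 1 to 4 of 12, duct and islet factors lower than in beta cells from 4 to 8, calcium signalling genes lower than in beta cells from 2 to 5 of 12, and immediate early and heat shock genes higher than in beta cells from 2 to 6 of 16 and lower than in duct cells from 0 to 4. Sums thinned to the smallest gave 1760 calls against duct cells. Leaving out 1 sum gave 1862 to 2310 calls against duct and 1082 to 3269 against beta cells, the lowest being 1082 without beta 2, 1100 without beta 1 and 2029 without acinar 1. DESeq2 gave 3302 and 3915 calls. The acinar share of primary pancreas 1 was 1.85% with at least 10% enzymes and 2.85% with at least 1%, and that of primary pancreas 2 was 1.34% under the study's limits on genes and UMIs. At 4000 UMIs 55 genes varied in place of 35.

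Chosen after seeing the data were the fits without scaling factors, with 10802 calls against duct and 11214 against beta cells, and those on bands of acinar cells. Gene-rich cells gave 2169 and 2519 calls (limit of 300) and 1725 and 1902 (limit of 500), and gene-poor cells 3454 and 3405, and 3407 and 3472. In the gene-poor fit at 300 the median of all genes moved to -2.03 and -2.02.

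Of 3871 log2 fold changes of 97 genes under the alternatives, 3469 kept direction and side of the threshold, 210 lost and 100 gained the call with direction kept, and 92 changed sign, 31 of them with a call in at least 1 of the 2 fits compared and 61 with a call in neither. MAFA had a fitted fold of 0 over duct cells in the thinned sums and is not counted there. The values that changed sign without scaling factors were GATA6 -1.86, XBP1 -0.65, ISL1 -0.86, HSPA5 -0.19, HSP90B1 -0.84, CALR -0.92, CANX -1.04, STIM2 -0.28, BCAT1 -0.87, PHGDH -0.30 and PECAM1 -0.64 over duct, and XBP1 -0.13, SOX9 -0.20, ERO1B -1.57, PPIB -0.73, HSPA5 -1.82, HSP90B1 -1.83, CALR -2.01, CANX -1.59, RAB3D -0.71, RAB27A -1.90, CHRM3 -0.65, ITPR2 -1.26, STIM2 -1.59, KCNMA1 -0.66, KRT7 -0.054, KRT8 -1.70, KRT18 -1.58 and BICC1 -0.93 over beta cells. In gene-poor cells at 300 they were GATA6 -1.57, ISL1 -6.60, ITPR2 -0.64, STIM2 -0.60, BCAT1 -0.30, PTPRC -10.03 and PECAM1 -2.33 over duct, and SOX9 -9.68, ITPR2 -1.76, STIM2 -1.75, KCNMA1 -1.49, EPCAM 0.70, BICC1 -0.084, PTPRC -9.03 and PECAM1 -0.85 over beta cells, and at 500 GATA6 -0.041, ISL1 -6.61, PTPRC -10.04 and PECAM1 -0.83 over duct, and STIM2 -0.26, EPCAM 0.35 and PTPRC -9.03 over beta cells. Gene-poor cells had no UMI of PTPRC or ISL1 at either limit or of SOX9 at 300, so that those fitted values are no measured folds. In gene-rich cells at 300 they were SLC7A8 0.23 over duct, and HSPA5 -0.95, HSP90B1 -0.50, CALR -0.47, CANX -0.15, RAB27A -0.079 and KRT8 -0.051 over beta cells, and at 500 HSP90B1 -0.16 and CANX -0.12 over duct, and PPIB -0.42, HSPA5 -0.89, HSP90B1 -1.003, CALR -0.88, CANX -0.51, KRT8 -0.15 and KRT18 -0.11 over beta cells. With at least 10% enzymes they were GATA6 -0.065 and PTPRC -1.90 over duct, and STIM2 -0.071, EPCAM 0.19 and PTPRC -0.89 over beta cells. In thinned sums they were SLC7A8 1.93 over duct, and HSPA5 -0.42 over beta cells. GATA6 was -0.067 over duct cells with no filter, SLC7A8 0.33 over duct cells without doublets, and CALR -0.035 over beta cells with RLE factors and with DESeq2. With 1 sum left out the values over duct cells ran for GATA6 from -0.064 to 0.19, ISL1 from -6.89 to 2.37, SLC7A8 from -0.81 to 1.37, PTPRC from -1.50 to 3.98, PECAM1 from -0.44 to 2.13, and over beta cells for HSPA5 from -0.46 to 1.09, HSP90B1 from -0.14 to 0.58, CALR from -0.22 to 0.20, RAB27A from -0.071 to 0.27, PTPRC from -0.44 to 5.01, the lowest of PTPRC, PECAM1, CALR and RAB27A being without acinar 1 and that of ISL1 without acinar 2, where acinar cells had no UMI of it. The causes were not tested. Acinar sums of 1397761 and 1504304 UMIs limit what could be called for scarce genes.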
